A study of Mus musculus with 12 samples.

Results

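Calcium cycling genes encode the channels, pumps, buffers and scaffolds that move calcium through a heart muscle cell at each beat. This account covers 10 of them: Atp2a2, Pln, Ryr2, Trdn, Casq1, Casq2, Cacna1c, Slc8a1, Jph2 and Camk2d. They were chosen by name, and each was read from the probe set annotated to that gene alone, or, for the 3 genes with several such probe sets (Trdn, Slc8a1 and Jph2), from the one with the highest mean over the 12 arrays. All 10 were measured, out of 19938 genes in all, and no filter on low values was applied, so each member entered every test.

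The tissue was heart ventricle of male C57BL/6 mice on Affymetrix whole-transcript arrays, in 6 groups of 2 arrays (n = 2 per group throughout). Right ventricles (RV) came from sham mice of 15 weeks, 3 weeks after the operation, and from mice with a Weck haemoclip on the pulmonary artery (PAC) studied after 1 week (age 13 weeks), 3 weeks (15 weeks) and 6 weeks (18 weeks). The left ventricle (LV) was taken 3 weeks after a sham operation or after a clip was placed on the aorta (TAC), at an age of 15 weeks in each case. Each heart was divided into LV, septum and RV, and the septum is not analysed here. The labels do not say whether the arrays of a group held tissue of separate animals, nor whether sham RV and sham LV pieces shared hearts, so the p-values measure only the spread between these samples, which may be technical. Sham tissue was present at 3 weeks only, so in the comparisons of PAC at 1 and 6 weeks with sham RV the time after operation and the age differ as well.

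In each heartbeat, calcium that enters through the L-type channel opens ryanodine receptors on the sarcoplasmic reticulum (SR), the calcium store of the cell, and the released calcium starts contraction. The cell relaxes when a pump returns calcium to the store and an exchanger moves the remainder out of the cell. Lower pump and receptor levels and altered phosphorylation of these proteins are well known features of failing hearts.

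Promoter sequences are shown for 3 members. Casq1 differed most between groups, Casq2 encodes the related calcium buffer that predominates in heart muscle, and Ryr2 encodes the release channel that works in one complex with calsequestrin. Each run holds the 250 bases before the annotated start of the gene, 5′ to 3′ on the gene's strand, from RefSeq on GRCm38.p6. Capitals mark E-boxes (CANNTG, the site read by myogenic and other helix-loop-helix factors) and, in Casq2, a MEF2 site. The window of Casq1 is chr1:172219896-172220145 on the minus strand, that of Casq2 is chr3:102086165-102086414 on the plus strand and that of Ryr2 is chr13:12106946-12107195 on the minus strand.
Casq1: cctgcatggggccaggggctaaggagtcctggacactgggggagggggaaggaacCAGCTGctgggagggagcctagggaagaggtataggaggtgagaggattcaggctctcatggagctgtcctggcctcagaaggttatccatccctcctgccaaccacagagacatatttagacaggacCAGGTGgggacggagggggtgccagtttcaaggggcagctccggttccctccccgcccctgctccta
Casq2: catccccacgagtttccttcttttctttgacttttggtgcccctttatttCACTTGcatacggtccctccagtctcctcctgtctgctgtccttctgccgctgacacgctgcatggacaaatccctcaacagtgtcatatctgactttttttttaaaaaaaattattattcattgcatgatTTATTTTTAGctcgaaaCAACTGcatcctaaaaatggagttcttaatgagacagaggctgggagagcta
Ryr2: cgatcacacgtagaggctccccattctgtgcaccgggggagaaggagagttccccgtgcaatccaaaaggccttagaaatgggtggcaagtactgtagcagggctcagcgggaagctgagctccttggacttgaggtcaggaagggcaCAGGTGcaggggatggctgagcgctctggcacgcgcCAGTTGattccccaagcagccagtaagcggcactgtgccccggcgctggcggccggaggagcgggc
Each of the 3 windows held 2 E-boxes. Counted back from the start, they began at -195 and -67 in Casq1, at -200 and -52 in Casq2 and at -102 and -66 in Ryr2. E-boxes were found in 66.2% of the 32851 promoter windows of this length. The MEF2 site of Casq2 (TTATTTTTAG, from -69 to -60) did not overlap an E-box, and the MEF2 motif was found in 2.92% of windows. The windows of Casq1 and Ryr2 held no MEF2 match. Casq1 alone of the 3 held a GC box (GGGCGG, either strand, not in capitals), which 32.7% of windows held. Both strands of the 3 windows held no TATA box (TATAAA, in 12.4% of windows), no M-CAT element (CATTCC, in 12.6%), no GATA site (AGATAA and its variant TGATAA, in 16.6%) and no CArG box (in 1.47%). Promoter entries were matched for 8 of the 10 members, without Atp2a2 and Trdn. No binding was measured in this study, so the matches describe the letters only.

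Values are log2 expression, on which a difference of 1 is a doubling. The mean of 11 cardiomyocyte markers lay between 13.35 and 13.42 on all 12 arrays, so the defining markers of heart muscle were present throughout. The means of the atrial, fibroblast, macrophage and endothelial marker lists differed between groups, also between the sham chambers. Which cells gave this signal was not measured. The mean of 6 atrial muscle markers was 6.80 and 7.39 in sham RV, against 9.41 and 10.71 in PAC at 1 week, where 6 of 6 rose (3 of 6 at 3 weeks and 2 of 6 at 6 weeks). It was 8.61 and 10.005 at 3 weeks and 8.44 and 8.98 at 6 weeks, 7.97 and 9.16 in sham LV, and 8.27 and 8.30 in TAC. The mean of 6 fibroblast markers was 9.65 to 9.70 in sham RV and 10.67 to 11.63 in PAC at 1 week, and that of 6 macrophage markers 7.64 to 7.70 and 8.12 to 8.94. That of 6 endothelial markers was 9.80 to 9.86 in sham RV, 9.93 to 9.95 in sham LV and 10.09 to 10.11 in PAC at 1 week. In bulk tissue, fewer cells of a type and less RNA per cell cannot be told apart. In the atrial mean, PAC 1 week array 2, PAC 3 weeks array 2 and sham LV array 2 stood above their mates by 1.30, 1.40 and 1.199, and the gap in the other groups was at most 0.58. These 3 are called the atrial-high arrays, and results are also given without them, a choice made after the values were seen. PAC 1 week array 1, which was kept, had a higher atrial mean (9.41) than sham LV array 2 (9.16), so that fit does not remove every array high in atrial markers. The correlation of 2 arrays of one group ran from 0.992 to 0.997 over genes, lowest in PAC at 1 week.

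Read from the probe set kept for each gene, 9 of the 10 members varied less over the 12 arrays than Casq1. The range from the lowest to the highest array was 0.17 for Pln, 0.19 for Atp2a2 and at most 0.48 (Cacna1c) among these 9, and 2.12 for Casq1. Probe sets that were not kept could vary more, as the second of Slc8a1 did (7.61 to 8.96). In PAC at 1 week Casq1 rose and Cacna1c fell, which is 2 of 10 members where 18.4% of all genes passed (limma, Benjamini-Hochberg adjusted p of 0.05 over 19938 genes). At 3 weeks 0 of 10 passed, against 5.76% of all genes, and 2 members had an unadjusted p under 0.05. At 6 weeks 0 of 10 passed, against 9.25%, again with 2 under an unadjusted 0.05. In the mean of the 3 PAC times, Casq1 rose and Ryr2 fell, where 24.8% of all genes passed. Split by direction, the background was 9.57% higher and 8.86% lower at 1 week, 3.22% and 2.54% at 3 weeks, 5.52% and 3.73% at 6 weeks, and 12.2% and 12.6% in the mean. The shares of members were thus near these backgrounds or below them. The median difference of the members was 0.05, 0.00 and 0.03 at 1, 3 and 6 weeks, against -0.05 at each time over all genes. Over genes at or above the median level, where all 10 members lie, the median was 0.08, 0.07 and 0.07, above that of the members. The groups of 2 arrays did not overlap, higher or lower than sham RV, for 3 and 3 members at 1 week (26.4% and 36.7% of all genes), 3 and 2 at 3 weeks (25.5% and 35.7%), and 4 and 3 at 6 weeks (26.0% and 35.8%). These comparisons share the same 2 sham RV arrays.

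**Figure D1:**
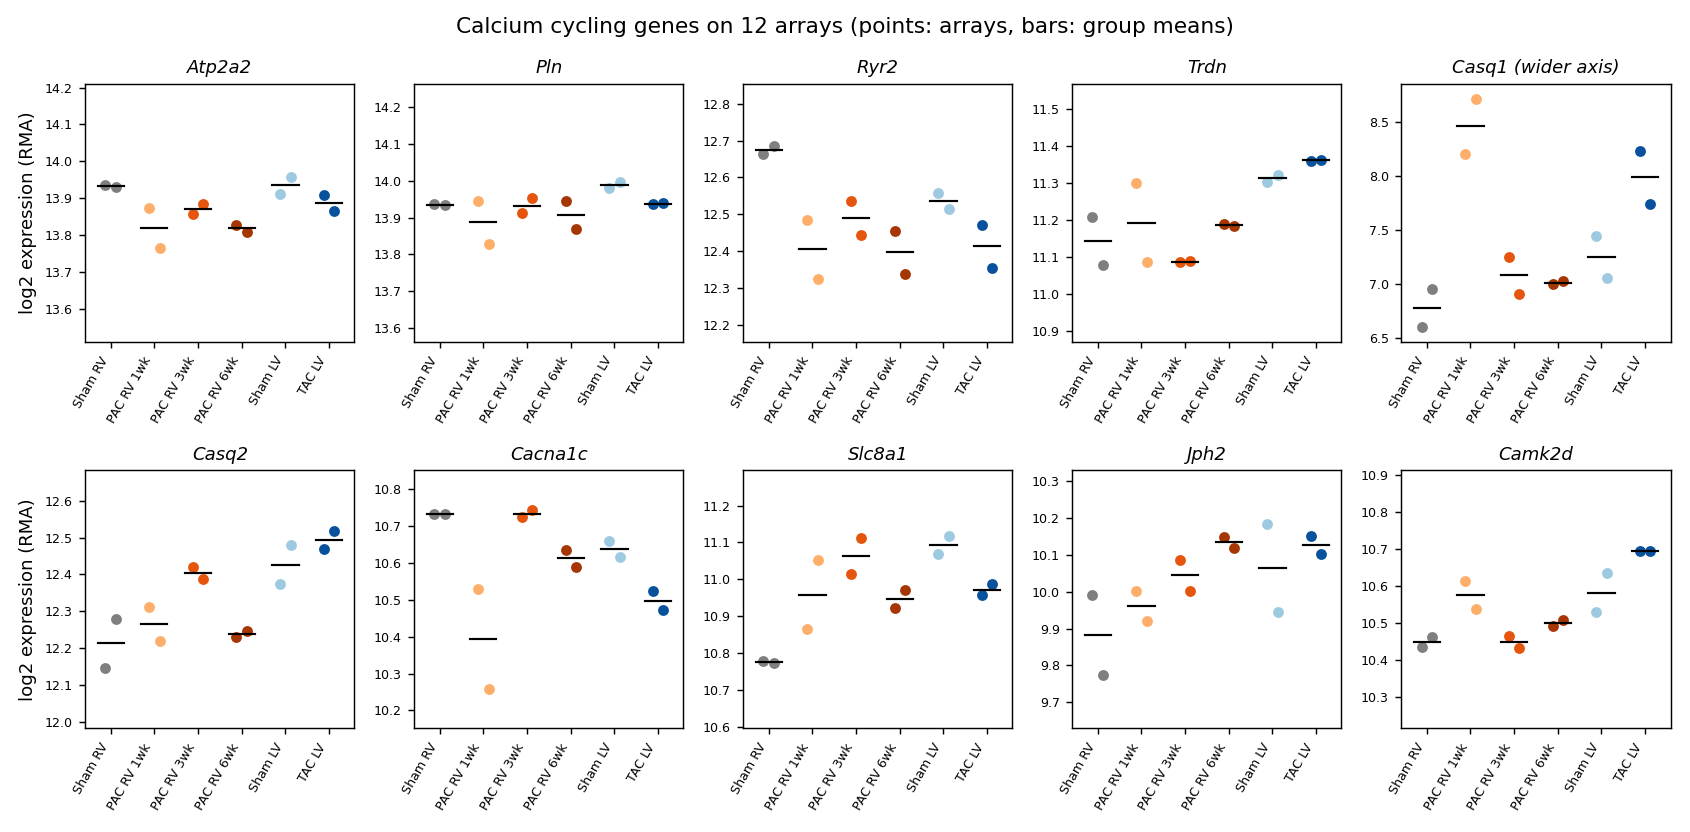
Log2 expression (y axis, RMA) of the 10 genes on each of 12 arrays, grouped on the x axis by operation, chamber and weeks; points are arrays and bars are group means of 2 arrays. The y axes span equal heights except that of Casq1, which is wider because its arrays run from 6.60 to 8.72, while those of Atp2a2 run only from 13.76 to 13.96.

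Release from the store is the work of Ryr2, the ryanodine receptor of heart muscle, with the luminal calcium buffer calsequestrin (Casq2 in heart, Casq1 chiefly in fast skeletal muscle) and triadin (Trdn), which ties calsequestrin to the receptor. Casq1 read 6.60 and 6.95 in sham RV and 8.21 and 8.72 in PAC at 1 week. It read 7.25 and 6.91 at 3 weeks, and 6.99 and 7.03 at 6 weeks. It read 7.45 and 7.05 in sham LV and 8.24 and 7.74 in TAC. The PAC 1 week arrays were thus above every other RV array, and both TAC arrays were above both sham LV arrays. The rise at 1 week was 1.69 ± 0.22 (SE; 8.46 ± 0.36 against 6.77 ± 0.24, SD), a 3.22-fold increase with an adjusted p of 0.0035 in limma. At 3 weeks the difference was 0.31 ± 0.22 (adjusted p = 0.36) with overlapping arrays, and at 6 weeks it was 0.24 ± 0.22 (adjusted p = 0.48). From PAC at 1 week to PAC at 6 weeks Casq1 fell by 1.45 (SE 0.22, limma adjusted p = 0.046), 1 of 10 members where 0.0953% of all genes passed (0.0602% lower and 0.0351% higher). That call was kept in 4 of 19 alternative analyses (adjusted p from 0.0058 to 0.56), and of the 12 that left out 1 array only the one without PAC 1 week array 1 kept it. The value stayed between -1.71 and -1.20. Over the 3 PAC times together Casq1 rose by 0.74 ± 0.18 (adjusted p = 0.018). Without sham RV array 1 that mean difference was 0.57 (adjusted p = 0.14), and without sham RV array 2 it was 0.92 (adjusted p = 0.074).

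Without the 3 atrial-high arrays the rise of Casq1 at 1 week was 1.43 ± 0.21 (adjusted p = 0.040), which rests on PAC 1 week array 1 with its atrial mean of 9.41. The fall from 1 to 6 weeks was then -1.20 ± 0.21 (adjusted p = 0.15). Within 3 of the 6 groups (PAC at 1 week, PAC at 6 weeks and TAC) the array with the higher atrial mean also had the higher Casq1 level, and in the other 3 it had the lower. PAC 1 week array 2 was the highest of all 12 in both, at 10.71 and 8.72, while PAC 3 weeks array 2 had an atrial mean of 10.005 and a Casq1 level of 6.91. The part of the atrial markers in the rise of Casq1 was not tested further. The mean of 11 skeletal muscle markers was 6.64 to 6.68 in sham RV and 6.64 to 6.70 in PAC at 1 week, where 1 rose (Mybpc2) and 2 fell (Tnni2 and Myh4). It was 6.62 to 6.64 in sham LV and 6.74 to 6.75 in TAC, so both TAC arrays were above both sham LV arrays, as for Casq1. The list did not move as one: the TAC differences of its 11 markers ran from -0.24 (Myh1) to 0.92 (Mybpc2), with a median of 0.08. The skeletal myosins Myh1 and Myh4 read 4.54 to 5.31 on every array, below the median of unlisted probe sets of 5.65 to 5.79. Myh2, the other skeletal myosin of the list, read 5.36 to 5.88, on both sides of that median. Mybpc2, fast skeletal myosin binding protein C, read 6.77 and 6.97 in sham RV and 8.38 and 9.12 in PAC at 1 week. It read 7.46 and 7.51 at 3 weeks, 7.97 and 8.25 at 6 weeks, 7.65 and 7.55 in sham LV, and 8.64 and 8.40 in TAC. Mybpc2 rose by 1.88 ± 0.20 at 1 week (adjusted p = 0.0029) and by 1.24 ± 0.20 at 6 weeks (adjusted p = 0.010), and the 1 week rise was 1.51 ± 0.16 (adjusted p = 0.016) without the 3 arrays. The part of the skeletal, fibroblast, macrophage and endothelial markers in the levels of Casq1 was not tested.

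**Figure D2:**
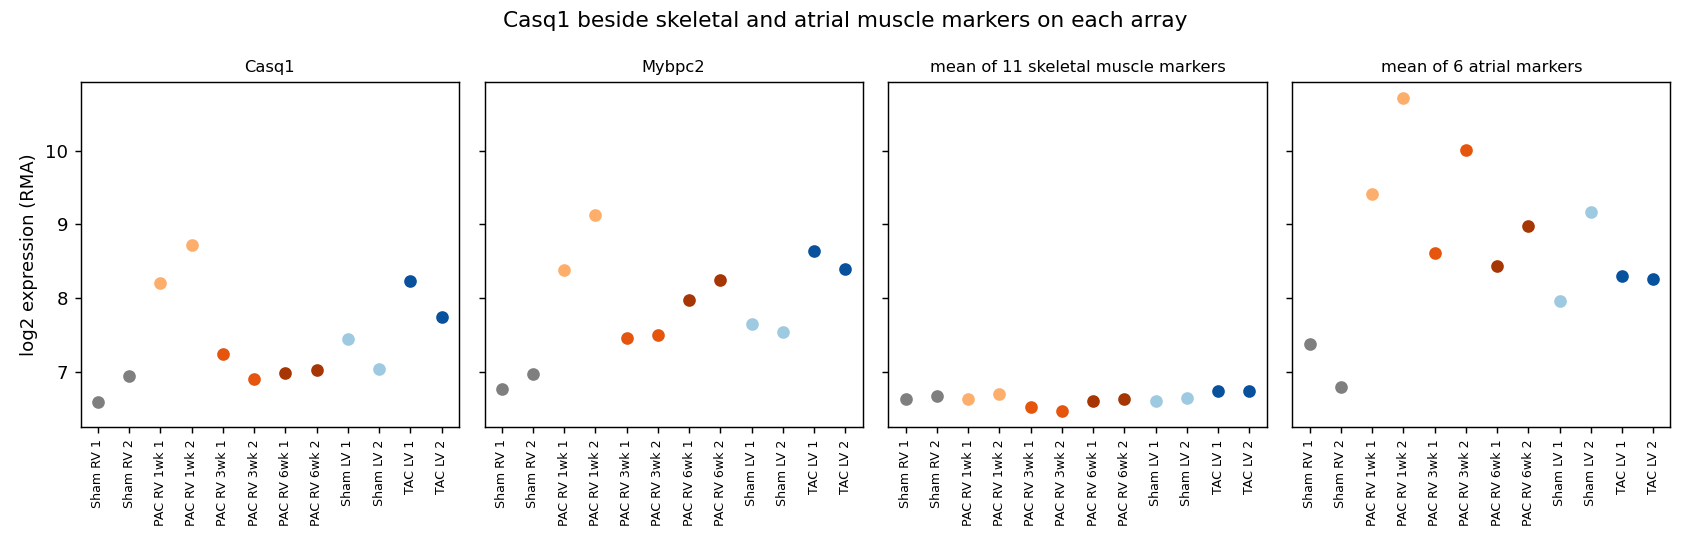
Log2 expression (y axis, shared scale) of Casq1, of Mybpc2, of the mean of 11 skeletal muscle markers (Mybpc2 among them) and of the mean of 6 atrial markers on each of the 12 arrays (x axis; 1 point per array). PAC 1 week array 2 is the highest array for Casq1 (8.72), Mybpc2 (9.12) and the atrial mean (10.71), TAC array 1 comes next for Casq1 (8.24) and Mybpc2 (8.64), and the skeletal mean stays between 6.47 and 6.75.

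Casq2 read 12.15 and 12.28 in sham RV, 12.31 and 12.22 in PAC at 1 week, 12.42 and 12.39 at 3 weeks and 12.23 and 12.25 at 6 weeks. It read 12.37 and 12.48 in sham LV and 12.47 and 12.52 in TAC. The 3 week PAC arrays were above both sham RV arrays, by 0.19 ± 0.08 (adjusted p = 0.16), and the other PAC groups overlapped sham RV. At 1 week the difference of Casq2 was 0.05, with a 95% interval of -0.14 to 0.24 that lies wholly below the interval of Casq1 (1.21 to 2.17).

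Ryr2 was highest in sham RV, at 12.66 and 12.68. It read 12.49 and 12.32 in PAC at 1 week, 12.54 and 12.44 at 3 weeks, and 12.46 and 12.34 at 6 weeks. It read 12.56 and 12.51 in sham LV and 12.47 and 12.36 in TAC. All 6 PAC arrays lay below both sham RV arrays, and both TAC arrays lay below both sham LV arrays. The fall over the 3 PAC times was -0.24 ± 0.07 (limma adjusted p = 0.038), a 1.18-fold decrease, and was called in 8 of 19 alternatives (adjusted p from 0.013 to 0.18). Of the 12 analyses that left out 1 array, it passed only in the 3 without array 1 of a PAC group (-0.27, -0.26 and -0.26). Without the 3 atrial-high arrays it was -0.20 ± 0.08 (adjusted p = 0.13). By time the differences were -0.27 ± 0.09 at 1 week (adjusted p = 0.061), -0.18 at 3 weeks (adjusted p = 0.20) and -0.28 ± 0.09 at 6 weeks (adjusted p = 0.078), so none passed alone. In TAC it was -0.12 ± 0.09 (adjusted p = 0.98).

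Trdn, read from its brightest probe set, stayed between 11.08 and 11.36. It read 11.21 and 11.08 in sham RV, 11.30 and 11.09 in PAC at 1 week, 11.09 and 11.09 at 3 weeks and 11.19 and 11.18 at 6 weeks. It read 11.30 and 11.32 in sham LV and 11.36 and 11.36 in TAC. All RV arrays were below the TAC arrays, and no difference of a PAC group from sham RV exceeded 0.06 in size. The gene has 19 probe sets of its own, however, and they did not give a single answer. When each was fitted by itself among 21789 single-gene probe sets, 8 of 19 rose and 0 fell in PAC at 6 weeks, where 9.48% of such probe sets passed. At 6 weeks 18 of 19 differences were above 0, with a median of 0.45 and a range of -0.02 to 0.73, against 0.04 for the brightest. At 1 week 3 rose (background 18.3%), and at 3 weeks 0 did (background 5.86%). Over the 3 times together 6 rose (background 24.7%), and 0 fell in any of these comparisons. One of those that rose at 6 weeks, with a mean level of 8.74, read 8.39 and 8.14 in sham RV and 9.06 and 8.85 at 6 weeks, a rise of 0.69 ± 0.12 (adjusted p = 0.012). It read 8.70 and 8.84 in sham LV and 9.17 and 9.12 in TAC. Without the 3 atrial-high arrays, 6 of 19 rose at 6 weeks and 0 at 1 week. Of the 19, 17 had a mean above the highest array median of unlisted probe sets. Which exons they read is not given in the sources used here, and probe sets of one gene share its RNA and are not replicates. The mean over all 19 differed from sham RV by 0.37 ± 0.10 at 6 weeks (adjusted p = 0.042).

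**Figure D3:**
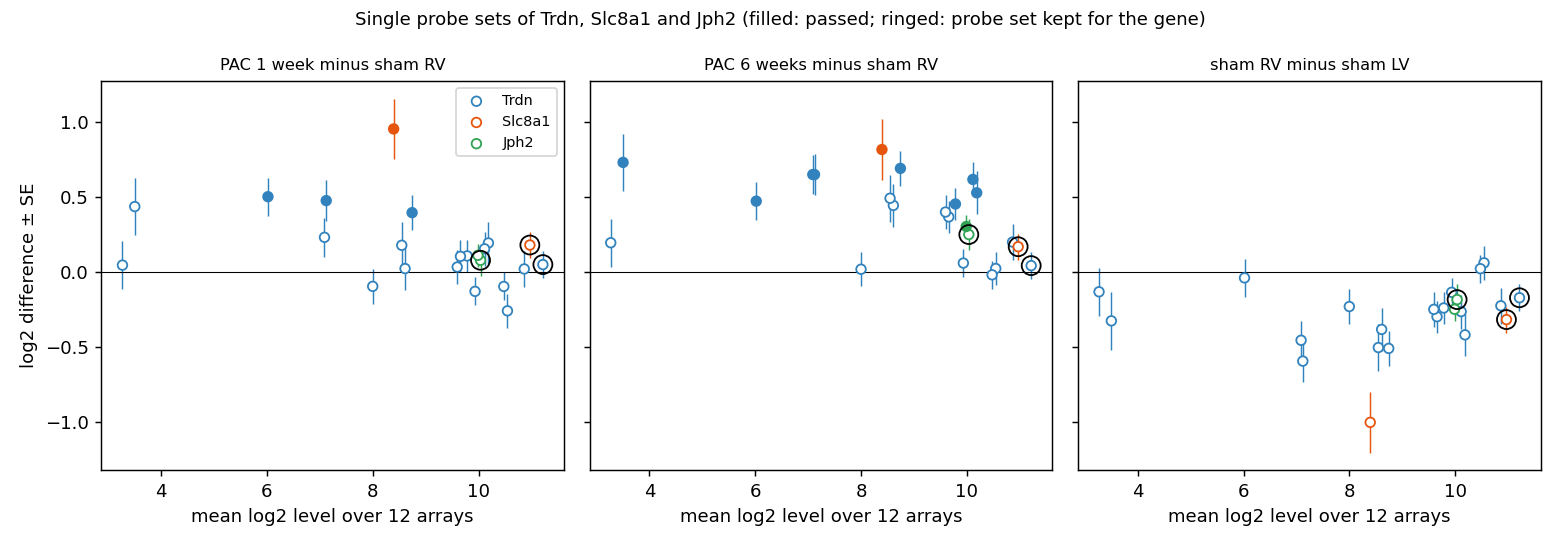
Log2 difference with its standard error (y axis) against the mean log2 level over 12 arrays (x axis) for each probe set of Trdn (19), Slc8a1 (2) and Jph2 (2) in 3 comparisons; filled points passed an adjusted p of 0.05 and rings mark the probe set used for the gene. In PAC at 6 weeks 18 of 19 Trdn points lie above 0, and the dimmer Slc8a1 point (0.82) lies far above the ringed one (0.17).

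Uptake into the store is carried out by the SR calcium pump SERCA2 (Atp2a2) under restraint by phospholamban (Pln). Atp2a2 read 13.94 and 13.93 in sham RV, 13.87 and 13.76 in PAC at 1 week, 13.86 and 13.88 at 3 weeks and 13.83 and 13.81 at 6 weeks. It read 13.91 and 13.96 in sham LV and 13.91 and 13.87 in TAC. All 6 PAC arrays were below both sham RV arrays, but by little. The difference was -0.11 ± 0.08 at 1 week (adjusted p = 0.30), -0.06 at 3 weeks and -0.11 at 6 weeks (adjusted p = 0.34), with 95% intervals no lower than -0.29. Pln read 13.94 and 13.94 in sham RV, 13.95 and 13.83 in PAC at 1 week, 13.91 and 13.95 at 3 weeks and 13.95 and 13.87 at 6 weeks. It read 13.98 and 14.00 in sham LV and 13.94 and 13.94 in TAC. PAC and sham RV overlapped at every time, with 95% intervals between -0.22 and 0.17. Both genes lay close to the highest value in the data, 14.78. Over the 12 arrays the 2 genes had a Pearson r of 0.82, given as a description, since the arrays share their groups and their scaling.

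Calcium enters through the L-type channel, whose pore is encoded by Cacna1c. Cacna1c read 10.73 and 10.73 in sham RV and 10.53 and 10.26 in PAC at 1 week. It read 10.72 and 10.74 at 3 weeks, 10.63 and 10.59 at 6 weeks, 10.66 and 10.62 in sham LV, and 10.52 and 10.47 in TAC. PAC 1 week array 2 was the lowest of all 12, and the 3 week arrays lay with sham RV. The fall at 1 week was -0.34 ± 0.10 (limma adjusted p = 0.037), a 1.26-fold decrease. Without that array the difference was -0.20 ± 0.09 (adjusted p = 0.23), and without the 3 atrial-high arrays it was -0.20 ± 0.10 (adjusted p = 0.27). The call was kept in 10 of 19 alternatives, and was also lost at the same size without either sham RV array (adjusted p = 0.10 and 0.13) and, by little, without any 1 LV array (adjusted p = 0.051 to 0.056). At 3 weeks the difference was 0.00 and at 6 weeks -0.12 ± 0.10 (adjusted p = 0.41), and from 1 to 6 weeks Cacna1c differed by 0.22 ± 0.10 (adjusted p = 0.49). Over the 12 arrays Cacna1c and Casq1 had an r of -0.86, a description over arrays that share these groups.

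Extrusion is the work of the sodium-calcium exchanger NCX1 (Slc8a1). Slc8a1 read 10.78 and 10.77 in sham RV, 10.86 and 11.05 in PAC at 1 week, 11.01 and 11.11 at 3 weeks and 10.92 and 10.97 at 6 weeks. It read 11.07 and 11.12 in sham LV and 10.96 and 10.99 in TAC. Every other array was above the 2 sham RV arrays. The difference from sham RV was 0.18 ± 0.09 at 1 week (adjusted p = 0.15), 0.29 ± 0.09 at 3 weeks (adjusted p = 0.071), 0.17 ± 0.09 at 6 weeks (adjusted p = 0.21) and 0.21 ± 0.07 over the 3 times (adjusted p = 0.051). None passed. The second probe set of the gene, with a mean of 8.39, differed more. It read 7.64 and 7.61 in sham RV, 8.20 and 8.96 in PAC at 1 week, 8.43 and 8.43 at 3 weeks, and 8.30 and 8.59 at 6 weeks. It read 8.47 and 8.79 in sham LV and 8.65 and 8.66 in TAC. This probe set rose by 0.96 ± 0.20 at 1 week (adjusted p = 0.016), 0.80 ± 0.20 at 3 weeks (adjusted p = 0.046) and 0.82 ± 0.20 at 6 weeks (adjusted p = 0.034). Without the 3 atrial-high arrays its rise was 0.82 ± 0.11 at 6 weeks (adjusted p = 0.013), and the differences at 1 week (0.58, adjusted p = 0.081) and 3 weeks (0.80, adjusted p = 0.099) no longer passed. With the mean of both probe sets, Slc8a1 passed at all 3 times (0.57, 0.54 and 0.49, adjusted p = 0.023, 0.046 and 0.049). The direction was the same for both probe sets in each PAC comparison with sham RV, and the size depended on the probe set read.

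Jph2 encodes junctophilin 2, which holds the T-tubule against the SR where channel and receptor face each other. Jph2 read 9.99 and 9.77 in sham RV, 10.003 and 9.92 in PAC at 1 week, 10.09 and 10.003 at 3 weeks and 10.15 and 10.12 at 6 weeks. It read 10.18 and 9.95 in sham LV and 10.15 and 10.10 in TAC. The PAC arrays of 3 and 6 weeks lay above both sham RV arrays, by 0.16 ± 0.10 (adjusted p = 0.31) and 0.25 ± 0.10 (adjusted p = 0.14). The second probe set of Jph2, with a mean of 9.99, rose at 6 weeks by 0.30 ± 0.08 (adjusted p = 0.036). Without the 3 atrial-high arrays that adjusted p was 0.052. Camk2d encodes the main calcium-calmodulin kinase of heart muscle, which phosphorylates the receptor and phospholamban. Camk2d read 10.43 and 10.46 in sham RV, 10.61 and 10.54 in PAC at 1 week, 10.46 and 10.43 at 3 weeks and 10.49 and 10.51 at 6 weeks. It read 10.53 and 10.63 in sham LV, and was highest in TAC, at 10.69 on both arrays. The difference at 1 week was 0.13 ± 0.08 (adjusted p = 0.25) and at 3 weeks 0.00.

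**Figure D4:**
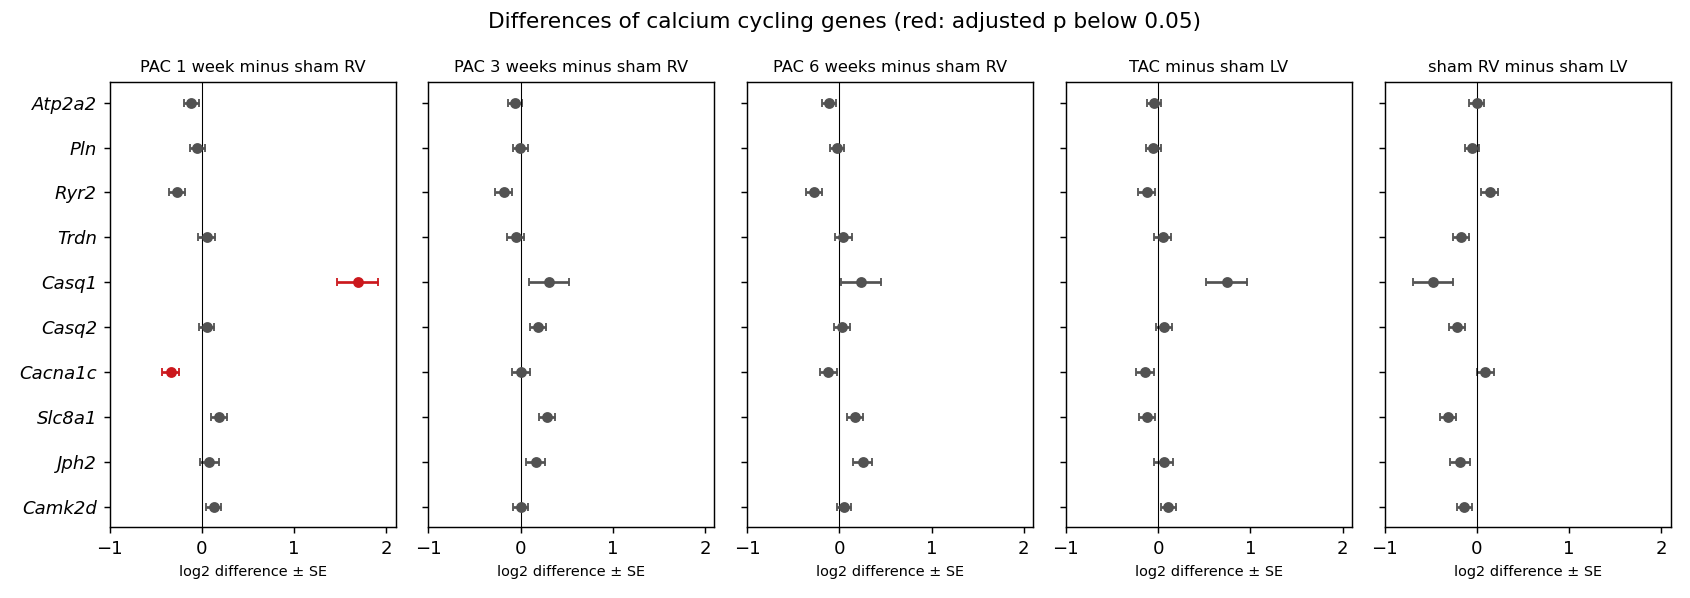
Log2 difference with its standard error (x axis) of each of the 10 genes (y axis) in 5 comparisons, with n = 2 arrays per group; red points passed an adjusted p of 0.05. Casq1 (1.69) and Cacna1c (-0.34) passed in PAC at 1 week, and in the other 4 panels no point did.

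In the left ventricle, 0 of 10 members passed between TAC and sham LV, where 0% of all genes passed in limma and 963 of 19938 had an unadjusted p under 0.05. Casq1 was the 1 member with an unadjusted p under 0.05 there, with a difference of 0.74 ± 0.22 and an adjusted p of 0.98. Its 2 TAC arrays (8.24 and 7.74) were above both sham arrays (7.45 and 7.05), and its difference stood at percentile 99.9 of all genes. Of the members, 3 had both TAC arrays above both sham LV arrays (Casq1, Trdn and Camk2d) and 5 had both below (Atp2a2, Pln, Ryr2, Cacna1c and Slc8a1). Over all genes 18.2% lay wholly above and 23.1% wholly below. Camk2d differed by 0.11 ± 0.08, Cacna1c by -0.14 ± 0.10 and Slc8a1 by -0.12 ± 0.09, each with an adjusted p of 0.98. With 2 arrays in each group, 0.33 is the smallest p that exact permutation allows.

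Between sham chambers, 0 of 10 members passed, where 0.411% of all genes did (0.0752% higher in RV and 0.336% lower), and 2 members (Slc8a1 and Casq2) had an unadjusted p under 0.05. Of the members, 6 had both sham RV arrays below both sham LV arrays (Slc8a1, Casq1, Casq2, Trdn, Camk2d and Pln) and 2 had both above (Ryr2 and Cacna1c), against 26.1% and 29.3% of all genes. The median difference of RV less LV was -0.15 over the members and 0.02 over all genes. Over genes at or above the median level, where all 10 members lie, it was -0.07, so part of this lower level was shared by bright genes in general. Slc8a1 was lower in sham RV by -0.32 ± 0.09 (adjusted p = 0.098), and its second probe set by -1.002 ± 0.20 (adjusted p = 0.051). Casq1 differed by -0.47 ± 0.22 (adjusted p = 0.25), Casq2 by -0.21 ± 0.08 (adjusted p = 0.20), and Trdn by -0.17 ± 0.09 (adjusted p = 0.31), while 17 of 19 Trdn probe sets were below 0 (median -0.25, 0 passed, background 0.858%). Atp2a2 was level, at -0.00 with a 95% interval of -0.17 to 0.17.

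Whether PAC and TAC differed in their effect at 3 weeks was tested as the PAC change less the TAC change. Of the members 0 of 10 passed, where 0% of all genes did in limma and 2381 had an unadjusted p under 0.05. The 1 member under an unadjusted 0.05 was Slc8a1, at 0.41 ± 0.12 (adjusted p = 0.36). Its PAC change was 0.29 and its TAC change -0.12. The second probe set did not have opposite signs: its PAC change was 0.80 and its TAC change 0.03, with overlapping TAC and sham LV arrays. Casq1 stood at -0.44 ± 0.31 (adjusted p = 0.57), with a 95% interval of -1.12 to 0.25.

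The order of the groups differed from gene to gene. By group mean, sham RV was the lowest group for Casq1, Casq2, Slc8a1, Jph2 and Camk2d, and the highest for Ryr2. For Camk2d it was level with PAC at 3 weeks, and for Casq2 and Jph2 its arrays overlapped those of the next group. Most neighbours in these orders overlapped. For Casq1 the order was PAC at 1 week, TAC, sham LV, PAC at 3 weeks, PAC at 6 weeks and sham RV, and arrays of neighbours were apart only between TAC and sham LV and between PAC at 6 weeks and sham RV. For Ryr2 only sham RV was apart from its neighbour. For Camk2d TAC stood apart at the top, and for Slc8a1 sham RV stood apart at the bottom.

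The genes most like each member over the 12 arrays, by Pearson r among genes above the median level, are given as a description of arrays that share their groups. For Atp2a2 they were Letm2, Aldh4a1 and Tnni3k (r of 0.97, 0.96 and 0.95), and for Pln they were Tmem182, Slc41a3 and Hadhb (0.94, 0.93 and 0.92). For Ryr2 they were Helz, Mrpl14 and Wnk2 (0.97, 0.95 and 0.95). For Casq1 they were Plau, Kit and Mki67 (0.91, 0.89 and 0.89). Cacna1c was followed by Camk2n1, Cyp27a1 and Ablim1 (0.93, 0.93 and 0.92), and Slc8a1 by Msmo1, Sri and Cd81 (0.95, 0.93 and 0.91). Sri encodes sorcin, a calcium-binding protein that acts on the ryanodine receptor. Trdn was followed by Uros, Rai2 and Gfm2 (0.95, 0.95 and 0.94), Casq2 by Oxnad1, Strip2 and Ttc4 (0.92, 0.90 and 0.89), Jph2 by Atg16l1, Zcchc4 and Rrs1 (0.91, 0.87 and 0.87) and Camk2d by Hagh, Ckm and Samd5 (0.91, 0.88 and 0.88).

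Around the 10 members, 113 of 130 listed calcium handling genes were measured by single-gene probe sets. In PAC at 1 week 9 rose and 11 fell, 17.7% of the list where 18.4% of all genes passed. At 3 weeks 2 rose and 1 fell (2.65%, against 5.76% of all genes), and at 6 weeks 8 rose and 6 fell (12.4%, against 9.25%). Over the 3 PAC times 15 rose and 16 fell (27.4%, against 24.8%), and in TAC, between sham chambers and from 1 to 6 weeks of PAC 0 passed. The median difference of the list was 0.03 at 1 week, -0.01 at 3 weeks and 0.00 at 6 weeks. These counts rest on few arrays, the sham RV pair above all, and so do the counts over all genes. In each refit below where the count of the list fell, the count over all genes fell as well. Without PAC 1 week array 2 the 1 week count was 1, with array 1 of sham RV left out it was 4, and with array 2 left out it was 1. Without the 3 atrial-high arrays it was 0, while the 6 week count was 14 as before. The 3 week count was 0 without those 3 arrays. The 6 week count was 3 with sham RV array 1 left out, and 0 with its mate or with PAC 6 weeks array 2 left out. Over the 3 times it was 9 and 0 with array 1 and array 2 of sham RV left out. Of the 11 genes lower at 1 week, 5 (Atp2a1, Atp2b2, Cacnb2, Mrln and Slc8a3) had a mean below the median level of all genes, 6.74, and Cacnb2 (5.52) and Slc8a3 (5.51) lay below the array medians of unlisted probe sets. The division of calls depends on the scaling: at 1 week 51.9% of all calls were increases, and 65.4% after cyclic loess.

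Among 14 genes of release and luminal buffering, 3 rose and 1 fell in PAC at 1 week. Srl, the luminal calcium-binding protein sarcalumenin, rose by 0.47 ± 0.08 (adjusted p = 0.010), Sri by 0.38 ± 0.11 (adjusted p = 0.038) and Asph, whose locus encodes junctin, by 0.27 ± 0.08 (adjusted p = 0.038). Hrc, a histidine-rich calcium buffer of the SR, fell by 0.53 (SE 0.15, adjusted p = 0.042). Its arrays were 11.59 and 11.45 in sham RV and 11.26 and 10.72 in PAC at 1 week. At 3 weeks Sri rose by 0.45 ± 0.11 (adjusted p = 0.043), and at 6 weeks Asph rose by 0.31 ± 0.08 (adjusted p = 0.034).

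Among 8 uptake genes, 1 rose and 2 fell at 1 week. Sln, sarcolipin, a small inhibitor of the pump that is typical of atrial muscle, rose by 1.701 ± 0.38 (adjusted p = 0.019). It read 5.92 and 5.72 in sham RV and 7.12 and 7.92 in PAC at 1 week, 7.73 on sham LV array 2 and 6.13 to 6.54 on the other LV arrays, so it was high on the arrays that were high in the atrial list, of which it is a member. Atp2a1, the pump of fast skeletal muscle, fell by 0.50 (SE 0.12, adjusted p = 0.023), and Mrln, a micropeptide of the pump, fell by 0.48 (SE 0.15, adjusted p = 0.045). Among 14 channel genes, Cacna1s, the pore of the skeletal L-type channel, fell by 0.58 (SE 0.12, adjusted p = 0.015) and Cacnb2, the main cardiac beta subunit, by 0.45 (SE 0.13, adjusted p = 0.045), and 0 rose. Cacna2d1, an auxiliary subunit of the channel, differed by 0.15 (adjusted p = 0.33).

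Among 6 genes of extrusion and the sodium pump, Atp1b1, a subunit of the pump that sets the sodium gradient for the exchanger, rose at 1 week (0.42 ± 0.09, adjusted p = 0.018) and 6 weeks (0.40 ± 0.09, adjusted p = 0.027). Atp2b1, a calcium pump of the cell membrane, rose at 6 weeks (0.37 ± 0.09, adjusted p = 0.036). Fxyd1, phospholemman, a regulator of the sodium pump, fell at 6 weeks by 0.30 (SE 0.08, adjusted p = 0.047). Atp2b2 fell at 1 week by 0.50 and at 6 weeks by 0.42, and Slc8a3 fell at 1 week by 0.42. Among 12 genes of the dyad and T-tubule, Tcap, telethonin, rose at 1 week (0.47 ± 0.10, adjusted p = 0.019) and at 6 weeks (0.41 ± 0.10, adjusted p = 0.037). At 3 weeks Tcap stood below sham RV, by -0.28 ± 0.10 (adjusted p = 0.11). Its arrays were 10.89 and 10.85 in sham RV, 11.44 and 11.24 at 1 week, 10.57 and 10.61 at 3 weeks and 11.32 and 11.25 at 6 weeks, so the 3 week arrays were the lowest of the 8 RV arrays and did not overlap them. Speg, a kinase of the dyad, fell at 1 week by 0.45 (SE 0.11, adjusted p = 0.022), and Jsrp1 fell at 6 weeks by 0.52. Jph1, a second junctophilin, differed by -0.23 at 1 week (adjusted p = 0.10).

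Among 22 genes of calcium-dependent signalling, 1 rose and 2 fell at 1 week. Rcan1, a calcineurin regulator that is itself a target of calcineurin signalling, rose by 0.94 ± 0.29 at 1 week (adjusted p = 0.046) and 1.19 ± 0.29 at 6 weeks (adjusted p = 0.033). Its arrays were 9.43 and 9.53 in sham RV, 9.84 and 10.999 at 1 week, 10.55 and 10.58 at 3 weeks and 10.46 and 10.88 at 6 weeks, all 6 PAC arrays above sham. At 3 weeks the adjusted p was 0.052. The kinase gene Camk2a fell by 0.46 at 1 week, and the transcription factor gene Mef2d fell by 0.34 at 1 week and 0.40 at 6 weeks. Among 16 genes that set the phosphorylation of calcium cycling proteins, Pde3a, a phosphodiesterase that limits cyclic AMP near the SR, fell at all 3 times, by 0.41, 0.50 and 0.49 (adjusted p = 0.027, 0.032 and 0.023). The catalytic phosphatase gene Ppp2ca rose at 1 and 6 weeks (0.30 and 0.39), and Prkar1a, a regulatory subunit of protein kinase A, at 6 weeks (0.51 ± 0.12, adjusted p = 0.034). Of 8 mitochondrial calcium genes 0 passed at any PAC time. Of 13 genes of store-operated and stretch-activated entry, Trpm7 rose at all 3 times, by 0.52, 0.46 and 0.49 (adjusted p = 0.013, 0.033 and 0.021), and 0 fell. Its arrays were 8.85 and 8.57 in sham RV and 9.17 to 9.26 over the PAC arrays.

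**Figure D5:**
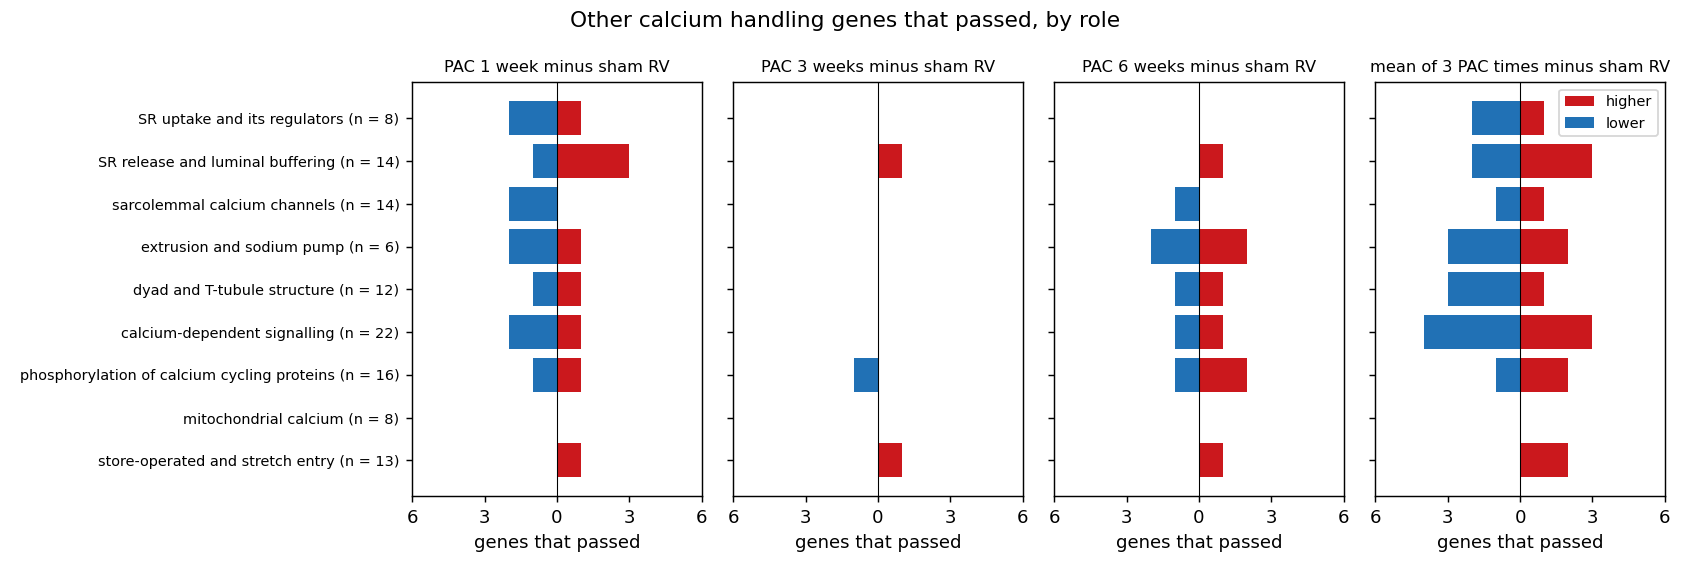
Number of genes that passed an adjusted p of 0.05 (x axis; higher to the right in red, lower to the left in blue) in each role (y axis, with the number measured) for 4 comparisons with sham RV. Increases and decreases occur side by side in most roles, and of the 8 mitochondrial genes 0 passed in any panel.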

How the data were processed

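Log2 expression values from 12 arrays were taken as deposited; RMA in Affymetrix Power Tools made them, per the submitters' processing notes, and the version, build and annotation used for that step were not stated in what was read here. Of 35556 probe sets, 21789 were annotated to 1 gene, 1621 to several (not used) and 12146 to none; the brightest per gene gave 19938 genes, with symbols updated through the RefSeq gene table. A linear model with 6 group means was fitted in limma 3.58.1 (R 4.3.3) with eBayes over all genes, and p-values were Benjamini-Hochberg adjusted over all of them in each of 8 comparisons (threshold 0.05). The code was tested on simulated data. Array medians ran from 6.32 to 6.40, and 2 arrays per group limit the precision.

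The members and gene lists were chosen with earlier results of these data known. All members were named, with up to 4 other calcium genes per role and comparison, those that passed first, plus Sln, Atp2a1, Fkbp1b, Asph, Hrc, Cacnb2, Cacna2d1 and Jph1, and for each member the 3 most correlated genes above the median level, without predicted gene models, Riken clones or small RNA genes. Arrays read for Rcan1, Tcap, Hrc, Sln and Trpm7 were chosen after their values were seen. Alternatives were cyclic loess, the mean over probe sets, dropping genes below the median level, a trended robust variance prior, fitting only the arrays compared, a replicate block, and leaving out each array. The fit of single probe sets and the fit without the 3 atrial-high arrays were added after seeing the data. Promoters came from RefSeq (GRCm38.p6).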

Additional observations from a re-analysis of the deposited data

Results flagged for a closer look

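Casq1 differed between times of PAC. Its level at 6 weeks less its level at 1 week was -1.45 ± 0.22 (limma adjusted p = 0.046), with both 6 week arrays (6.99 and 7.03) below both 1 week arrays (8.21 and 8.72). The call was fragile. It was lost in limma with cyclic loess (adjusted p = 0.0502), a replicate block (0.057) and only the arrays compared (0.56). The value stayed between -1.71 and -1.20 over the alternatives.

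Slc8a1, read from its brighter probe set, moved in opposite directions under the 2 operations at 3 weeks on every array. PAC arrays (11.01 and 11.11) lay above sham RV (10.78 and 10.77), and TAC arrays (10.96 and 10.99) lay below sham LV (11.07 and 11.12). The difference between the PAC change and the TAC change was 0.41 ± 0.12 and did not pass (limma adjusted p = 0.36), and 0% of all genes did. The second probe set of Slc8a1 did not show opposite directions: its TAC arrays (8.65 and 8.66) lay between the sham LV arrays (8.47 and 8.79), a difference of 0.03.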

How the results depend on the processing

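Members that passed were counted again under each alternative. In PAC at 1 week the count of 2 became 1 with only the arrays compared (Casq1) and 1 without the 3 atrial-high arrays (Casq1), and ran from 1 to 3 when 1 array was left out. At 3 weeks the count of 0 became 1 (Slc8a1) with the mean over probe sets, without genes below the median level and with the trended robust prior, and ran from 0 to 1 with 1 array left out. At 6 weeks the count of 0 became 2 (Slc8a1 and Trdn) with the mean over probe sets and 1 (Ryr2) without genes below the median level or with the trended prior. In the mean of PAC times the count of 2 became 1 with only the arrays compared and 1 without the 3 arrays, and ran from 0 to 4 with 1 array left out. From 1 to 6 weeks of PAC the count of 1 became 0 with cyclic loess, with only the arrays compared and without the 3 arrays, and ran from 0 to 1 with 1 array left out. Between sham chambers, calls over all genes rose from 15 higher and 67 lower to 146 and 725 without genes below the median level. With the trended prior they were 129 and 594. In both settings the count of members there became 1 (Slc8a1), from 0. In TAC and in the difference of PAC and TAC changes it was 0 in all 19 alternatives. Calls were also gained. At 1 week Slc8a1 passed with the mean over probe sets, and Ryr2 passed without genes below the median level and with the trended prior. In the mean of PAC times Slc8a1 passed in each of these settings. Over all genes, 642 higher and 506 lower passed at 3 weeks, against 1212 and 375 without genes below the median level, where fewer genes are tested. With the trended prior 1041 and 607 passed, and with the mean over probe sets 642 and 503. At 6 weeks 1101 and 743 became 1746 and 691, 1513 and 824, and 1102 and 741 in the same order. The cause of these changes was not tested.

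With a replicate block the counts were 3 at 1 week (with Ryr2, adjusted p = 0.048), 3 in the mean of PAC times, and 0 from 1 to 6 weeks (Casq1 adjusted p = 0.057). The labels do not say what the numbers share. Of 15 pairs of groups, 5 had deviations correlated above 0.1 (range -0.24 to 0.37). Among them were all 3 pairs of PAC groups (0.26 to 0.37), while sham RV and the PAC groups ran from -0.09 to 0.02, so pairing was not taken as given.

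Casq1 in PAC at 1 week passed in 19 of 19 alternatives (1.43 to 1.94, adjusted p from 0.0011 to 0.040). Over 1520 member values, 1461 kept their side of the threshold, 37 lost the call, 22 gained one and 0 called values reversed. Of 80 member results, 26 changed sign somewhere, all of them not called and at most 0.10 in size. Over all genes the count at 1 week was 3675, from 89 with only the arrays compared to 4557 without PAC 1 week array 1. At 3 weeks it was 1148 (3 to 2070), at 6 weeks 1844 (3 to 2656), and in the mean 4941 (296 to 6235). The share of increases among calls at 1 week was 51.9%, against 65.4% with cyclic loess and 74.3% without genes below the median level. The same filter moved it from 55.9% to 76.4% at 3 weeks, from 59.7% to 71.6% at 6 weeks and from 49.1% to 71.2% in the mean, and cyclic loess moved it from 18.3% to 28.8% between sham chambers. Among 113 other calcium handling genes the count at 3 weeks was 3, against 14 without genes below the median level, 13 with the trended prior and 6 with the replicate block, and at 1 week it was 20, against 1 with only the arrays compared and 34 without PAC 1 week array 1.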

Other observations

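A pair of calcium-related genes outside the 10 members showed patterns across all 6 groups that no comparison above sets side by side. Rcan1, the calcineurin regulator, read 9.72 and 9.98 in sham LV and 10.50 and 10.72 in TAC, a difference of 0.76 ± 0.29 that did not pass (limma adjusted p = 0.98). Its TAC arrays lay within the range of the PAC arrays (9.84 to 10.999). Tcap, telethonin, read 10.80 and 10.54 in sham LV and 10.90 and 10.99 in TAC, so the 3 week PAC arrays (10.57 and 10.61) lay with the lower sham LV array. The difference between the PAC and TAC changes of Tcap at 3 weeks was -0.55 and did not pass (limma adjusted p = 0.35). Both genes were chosen after their values were seen.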
